A study of Mus musculus with 12 samples.

Results

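The megakaryocyte lineage genes followed in cultured haematopoietic progenitors were 10: Itga2b, Itgb3, Pf4, Vwf, Gp1bb, Gp5, Gp6, Gp9, Selp and Fli1. They were chosen by symbol: every probe set that the platform annotation gives to exactly 1 of these symbols was taken. This gave 15 probe sets for all 10 genes, among 45037 probe sets tested and 18193 genes with a symbol of their own. The cells were KSL progenitors (c-Kit+ Sca-1+, without lineage markers), sorted from the marrow of mice aged 2 to 4 months. All were cultured for 24 h with 10% serum and the cytokines Flt3L at 50, IL-6 at 20, SCF at 10 and IL-11 at 10 ng/ml, and treated cultures also held the inflammatory cytokine TNF alpha (TNF) at 10 ng/ml. The 4 groups, each of 3 Affymetrix arrays, were Fancc-/- cells with TNF, Fancc-/- cells in growth factors alone, wild-type cells with TNF, and wild-type cells in growth factors alone. Nothing in the labels ties the replicates of a group to separate animals. P-values therefore reflect the spread among these arrays alone; in 3 of the 4 groups the sex-linked transcripts given below differed between arrays, so those arrays were not repeats of 1 RNA, and on the TNF-treated arrays labelled mutant the spread may be technical.

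Megakaryocytes are the marrow cells that shed platelets. Their surface carries the integrin αIIbβ3 (Itga2b and Itgb3), which binds fibrinogen, and the GPIb-IX-V complex (with Gp1bb, Gp9 and Gp5), which binds von Willebrand factor (Vwf). Gp6 encodes the platelet collagen receptor. The α granules store von Willebrand factor, platelet factor 4 (Pf4) and P-selectin (Selp), and Fli1 is an ETS-family transcription factor of the lineage. Several members are not exclusive to it: Itga2b marks early progenitors too, Itgb3 also pairs with Itgav, Vwf and Selp are made by endothelium, and Fli1 is active in many blood cells.

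The arrays were alike in scale, with values from 2.14 to 14.94 (log2) and correlations between arrays from 0.982 to 0.996. Of 7 stem and progenitor markers, Kit lay between 9.95 and 10.77 and Cd34 between 12.81 and 13.13 on every array. Cd48, Flt3, Procr and Hlf lay above the median of all values (6.02) on every array, and Slamf1 read only 3.33 to 4.51. Ly6a, the gene of the sort marker Sca-1, was not analysed here. Fancc, the targeted gene, did not read lower on the arrays labelled mutant: its brightest probe set averaged 8.98 and 9.01 there (with and without TNF) and 8.42 and 8.33 on wild-type arrays. The difference averaged 0.62 (SE 0.10, limma adjusted p = 0.164). It is not known here which stretch of the gene was disrupted or whether the probes cover it, so genotype is given as labelled. The sex-linked transcripts Xist and Eif2s3y differed between replicates. Xist read 5.12 on 1 untreated array labelled mutant and 5.47 and 5.06 on 2 untreated wild-type arrays, against at least 12.04 elsewhere, and Eif2s3y read 4.16 on 1 untreated array labelled mutant and 3.79 on 1 treated wild-type array, against at least 10.46 elsewhere. Both transcripts were above the median of all values on 7 of the 12 arrays, only Xist on 2 and only Eif2s3y on 3. The 3 TNF-treated arrays labelled mutant were alike in this, and each of the other 3 groups held unlike arrays. The number of arrays limits the precision of every value below.

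The 10 genes did not move as a block. A probe set is said to have passed where its limma p, adjusted over all 45037 probe sets, was under 0.05; values and changes are on the log2 scale. TNF raised Itgb3 in both genotypes, by 1.61 on the log2 scale on the arrays labelled mutant and by 1.29 in wild type (brightest probe set). Averaged over genotype, Gp1bb and Gp9 passed as lower. The Gp9 call was lost in 11 of 21 alternative analyses, and the Gp1bb calls only with Xist and Eif2s3y as covariates. Itga2b, Pf4, Vwf, Gp5, Gp6, Selp and Fli1 passed in no comparison. No member passed for genotype.

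**Figure D1:**
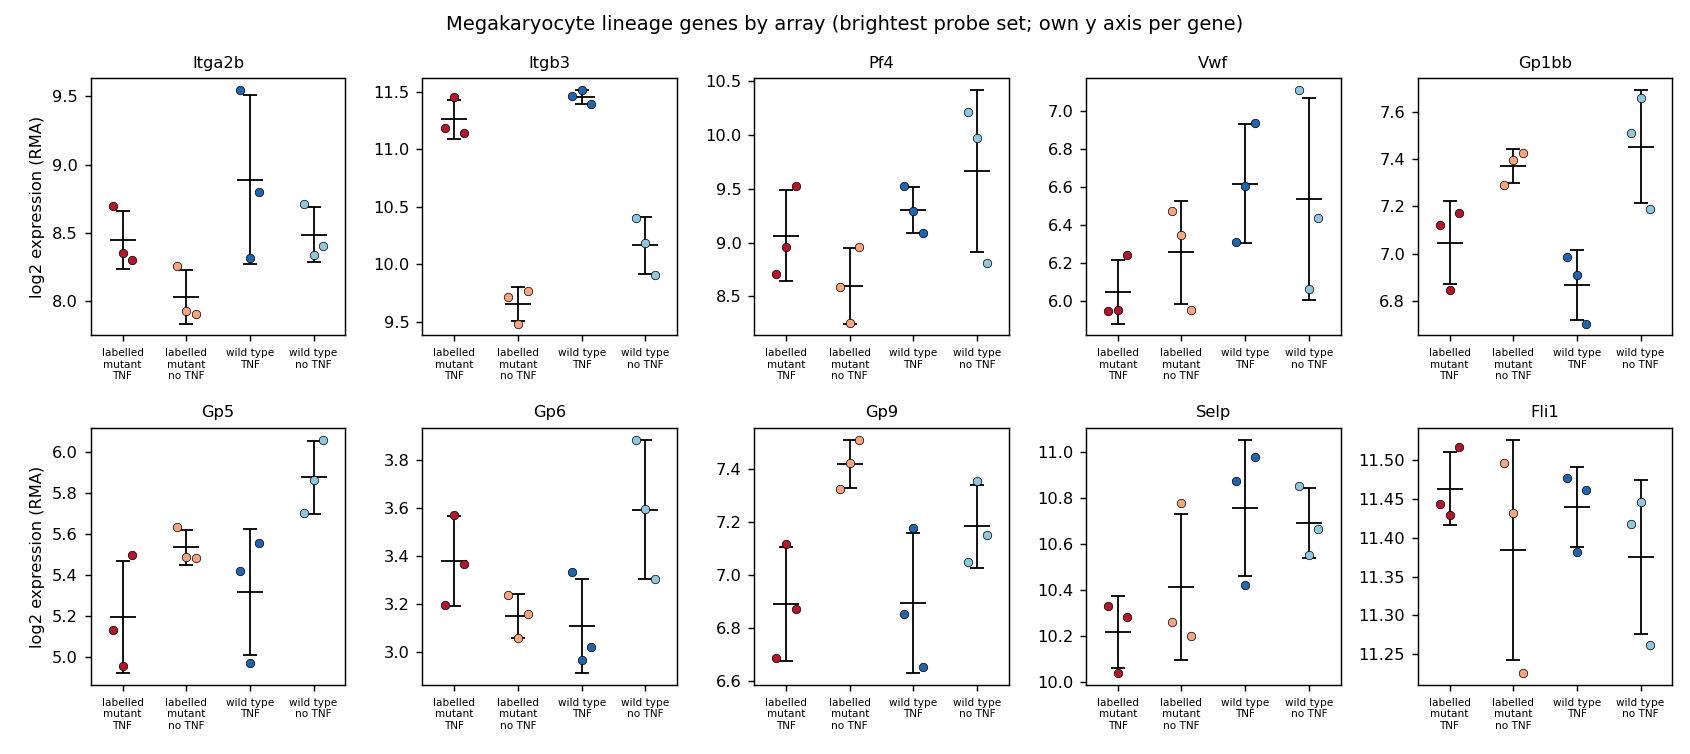
Log2 expression (RMA) of each gene's brightest probe set on the 12 arrays, with 1 panel and its own y axis per gene. Points are arrays, and the bars give the mean and SD of 3 arrays per group. The Itgb3 arrays with TNF, from 11.14 to 11.51, all lie above those without it, from 9.48 to 10.40.

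The question for the treated cultures was what TNF changed. Itgb3 was measured by 2 probe sets. The brighter one (1455257_at) read 11.19, 11.45 and 11.14 on the TNF-treated arrays labelled mutant and 9.71, 9.48 and 9.77 on the untreated ones. It read 11.46, 11.51 and 11.39 on the treated wild-type arrays and 10.40, 10.19 and 9.91 on the untreated ones. Every treated array thus stood above every untreated one, whatever its genotype. The change was 3.05-fold on the arrays labelled mutant (SE 0.14 on the log2 scale, limma adjusted p = 0.00019) and 2.45-fold in wild type (SE 0.14, limma adjusted p = 0.000712).

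The dimmer Itgb3 probe set (1421511_at) gave 6.55, 6.42 and 6.42 on treated against 5.38, 5.47 and 5.43 on untreated arrays labelled mutant, a rise of 1.03 (SE 0.17, limma adjusted p = 0.0111). The wild-type arrays gave 6.23, 6.04 and 6.80 with TNF and 5.72, 6.07 and 6.04 without it. The wild-type groups overlapped there, and the change of 0.42 (SE 0.17) did not pass (limma adjusted p = 0.268). The probe sets therefore differed in the size of the wild-type response. The difference between the TNF effects of the genotypes was 0.32 (SE 0.19) on the brighter and 0.61 (SE 0.24) on the dimmer probe set, and neither passed (limma adjusted p = 1 for both). Averaged over genotype, Itgb3 rose by 1.45 (SE 0.10) and 0.73 (SE 0.12), with limma adjusted p = 1.13e-05 and 0.00441.

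By group mean, Itgb3 was highest in treated wild type (11.46 ± 0.06, SD, n = 3), then in treated cells labelled mutant (11.26 ± 0.17), untreated wild type (10.17 ± 0.25) and untreated cells labelled mutant (9.65 ± 0.15). The treated groups overlapped. The untreated ones did not, but their difference did not pass, as given below. The integrin partners of Itgb3 did not pass with TNF. Itga2b (1417758_at) read 8.69, 8.36 and 8.30 on treated and 8.26, 7.93 and 7.91 on untreated arrays labelled mutant, without overlap. In wild type it read 9.54, 8.32 and 8.80 on treated and 8.71, 8.34 and 8.41 on untreated arrays, with overlap. The changes of 0.42 and 0.40 (SE 0.26 each) had limma adjusted p = 0.563 and 0.527, with 95% intervals from -0.15 to 0.99 and from -0.17 to 0.97. Itgav, the other α partner, was looked up after the Itgb3 values were seen; its brightest probe set lay between 11.20 and 11.50 on all arrays and changed by 0.08 (SE 0.09) on arrays labelled mutant and 0.10 (SE 0.09) in wild type, neither passing.

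The genes of the GPIb-IX-V complex lay on the other side of 0. For these genes, and for Itga2b, the promoter windows are shown because 3 of them encode subunits of 1 receptor and had negative TNF changes, while Itga2b encodes the partner of Itgb3. The sequences are RefSeq promoters of build GRCm38.p6, cut to the 250 bases before and 30 after the start and written 5′ to 3′ on the gene's strand. Capitals mark every match, on either strand, to a GATA motif (AGATAA or AGATAG, and the same with a first T, TGATAA or TGATAG) or an ETS motif (AGGAAG or CCGGAA).
Gp1bb (chr16:18622374-18622653, - strand): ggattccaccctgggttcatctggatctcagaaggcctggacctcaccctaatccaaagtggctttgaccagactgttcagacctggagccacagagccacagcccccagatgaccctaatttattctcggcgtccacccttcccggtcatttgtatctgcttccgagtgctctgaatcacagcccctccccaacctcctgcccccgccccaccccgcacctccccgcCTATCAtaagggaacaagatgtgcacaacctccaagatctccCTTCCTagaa
Gp9 (chr6:87777820-87778099, + strand): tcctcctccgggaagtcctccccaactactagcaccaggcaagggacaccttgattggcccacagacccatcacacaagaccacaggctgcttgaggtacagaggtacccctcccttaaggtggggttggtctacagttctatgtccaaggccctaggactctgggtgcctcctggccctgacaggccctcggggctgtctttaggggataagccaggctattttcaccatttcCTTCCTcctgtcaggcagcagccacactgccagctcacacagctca
Gp5 (chr16:30310752-30311031, - strand): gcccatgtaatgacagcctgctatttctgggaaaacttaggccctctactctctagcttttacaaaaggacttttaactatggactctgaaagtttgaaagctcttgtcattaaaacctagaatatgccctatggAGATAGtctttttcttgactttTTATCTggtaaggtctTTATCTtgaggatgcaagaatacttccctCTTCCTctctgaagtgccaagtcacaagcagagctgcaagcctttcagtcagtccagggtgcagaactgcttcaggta
Itga2b (chr11:102469854-102470133, - strand): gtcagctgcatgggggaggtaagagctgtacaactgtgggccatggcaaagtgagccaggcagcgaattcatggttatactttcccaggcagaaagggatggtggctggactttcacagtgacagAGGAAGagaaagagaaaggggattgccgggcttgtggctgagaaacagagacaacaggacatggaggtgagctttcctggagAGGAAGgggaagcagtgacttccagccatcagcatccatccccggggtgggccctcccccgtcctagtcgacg
The Gp1bb window held 1 GATA and 1 ETS match, the Gp9 window 1 ETS match, the Gp5 window 3 GATA matches and 1 ETS match, and the Itga2b window 2 ETS matches, with no motif overlapping another. Of the 10 members, 7 had a window in the table (Itgb3, Vwf and Fli1 were not among them): 3 of the 7 held a GATA match and 6 an ETS match. Of all 32851 windows of this length, 28.7% held a GATA match and 42.5% an ETS match. These are matches of letters only, and no factor's binding was measured.

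Gp1bb, the β chain of glycoprotein Ib, had 2 probe sets, and each passed in a different genotype. The dimmer one (1422977_at) read 6.00, 6.20 and 6.78 on treated and 7.40, 7.55 and 7.23 on untreated arrays labelled mutant. It fell by 1.06 there (SE 0.23, limma adjusted p = 0.041). The wild-type arrays read 7.03, 6.99 and 6.26 with TNF and 7.58, 7.50 and 7.36 without it, a change of -0.72 (SE 0.23) that did not pass (limma adjusted p = 0.146). All treated arrays lay below all untreated ones on this probe set.

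The brighter Gp1bb probe set (1456427_at) read 7.12, 6.84 and 7.17 on treated and 7.29, 7.40 and 7.43 on untreated arrays labelled mutant, a change of -0.33 (SE 0.14) that did not pass (limma adjusted p = 0.329). In wild type it read 6.99, 6.91 and 6.70 on treated and 7.51, 7.66 and 7.19 on untreated arrays. There it fell by 0.59 (SE 0.14, limma adjusted p = 0.0497). Again the treated arrays lay below the untreated ones, without overlap. The wild-type call was lost in 17 of 22 alternative analyses and the call of the dimmer probe set on arrays labelled mutant in 11 of 20, with the direction kept in each. Averaged over genotype both probe sets fell, by 0.46 (SE 0.10, limma adjusted p = 0.0157) and 0.89 (SE 0.16, limma adjusted p = 0.00728). With Xist and Eif2s3y levels as covariates neither average passed (adjusted p = 0.149 and 0.0666). The gene overlaps Septin5 in the annotation, so RNA from the 2 genes may not be separated; a probe set that the annotation gives to both read only 4.35 to 4.90 on the 12 arrays.

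**Figure D2:**
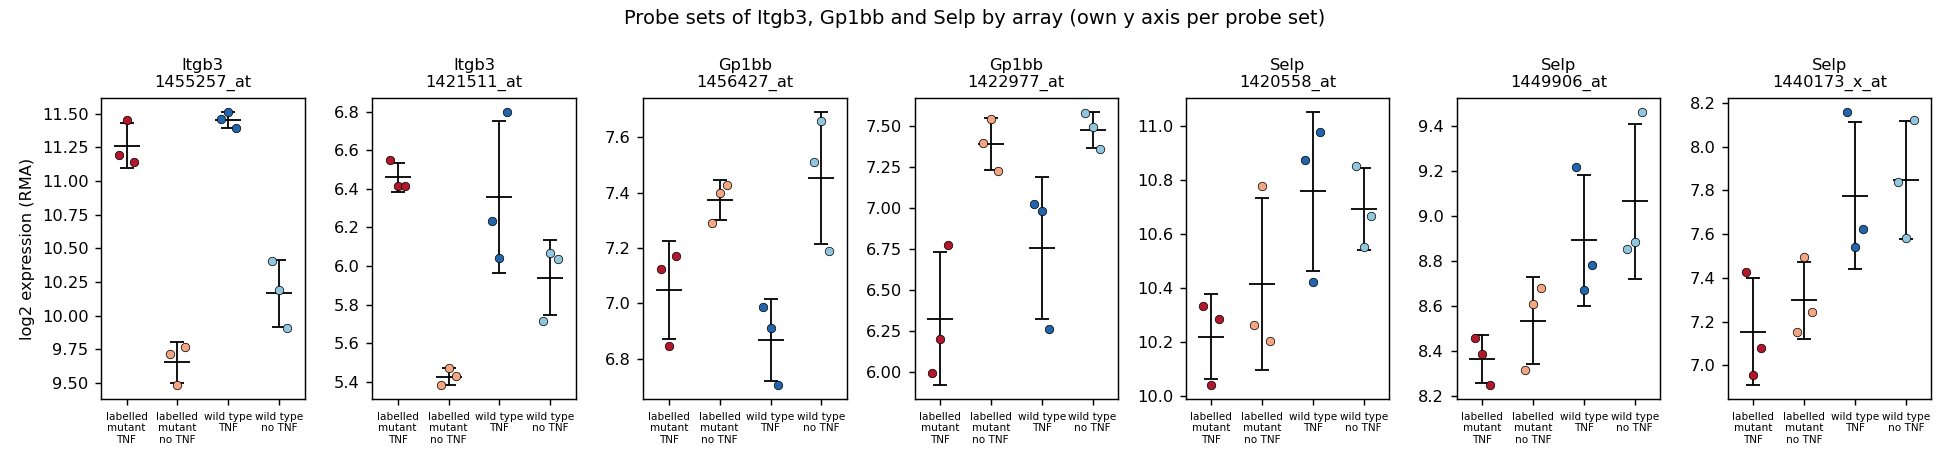
Log2 expression (RMA) of all probe sets of Itgb3, Gp1bb and Selp on the 12 arrays, with 1 panel and its own y axis per probe set; bars give the mean and SD of 3 arrays. On both Gp1bb probe sets the treated arrays lie below the untreated ones of the same genotype, and on the 3 Selp probe sets the arrays labelled mutant tend to lie below the wild-type ones.

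Gp9, which encodes glycoprotein IX, read 6.69, 7.12 and 6.87 on treated and 7.33, 7.43 and 7.51 on untreated arrays labelled mutant, without overlap. On wild-type arrays it read 6.86, 7.18 and 6.65 with TNF and 7.05, 7.36 and 7.15 without it, and the groups overlapped. The changes of -0.53 and -0.29 (SE 0.15 each) did not pass (limma adjusted p = 0.127 and 0.406). The average over genotype fell by 0.41 (SE 0.11, limma adjusted p = 0.0423), a call that was lost in 11 of 21 alternative analyses, among them 9 of the 12 that left out 1 array.

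Gp5, which encodes glycoprotein V, read 5.13, 4.96 and 5.49 on treated and 5.63, 5.49 and 5.48 on untreated arrays labelled mutant. In wild type it read 5.42, 4.97 and 5.56 on treated and 5.70, 5.86 and 6.06 on untreated arrays. Only the wild-type groups did not overlap. Its average change of -0.45 (SE 0.12) missed the threshold (limma adjusted p = 0.0506) and passed in 8 of 20 alternative analyses. Gp1ba, the remaining subunit gene of the complex, was not analysed here.

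Gp6 read close to the lower end of the scale, at 3.31 on average, where changes are compressed. It read 3.20, 3.57 and 3.37 on treated and 3.24, 3.06 and 3.16 on untreated arrays labelled mutant, and 3.33, 2.97 and 3.02 on treated and 3.89, 3.59 and 3.30 on untreated wild-type arrays. Both pairs of groups overlapped. The changes were 0.23 and -0.49 (SE 0.16 each), and the difference between them, 0.72 (SE 0.22), did not pass (unadjusted p = 0.00854 and adjusted p = 1, limma).

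**Figure D3:**
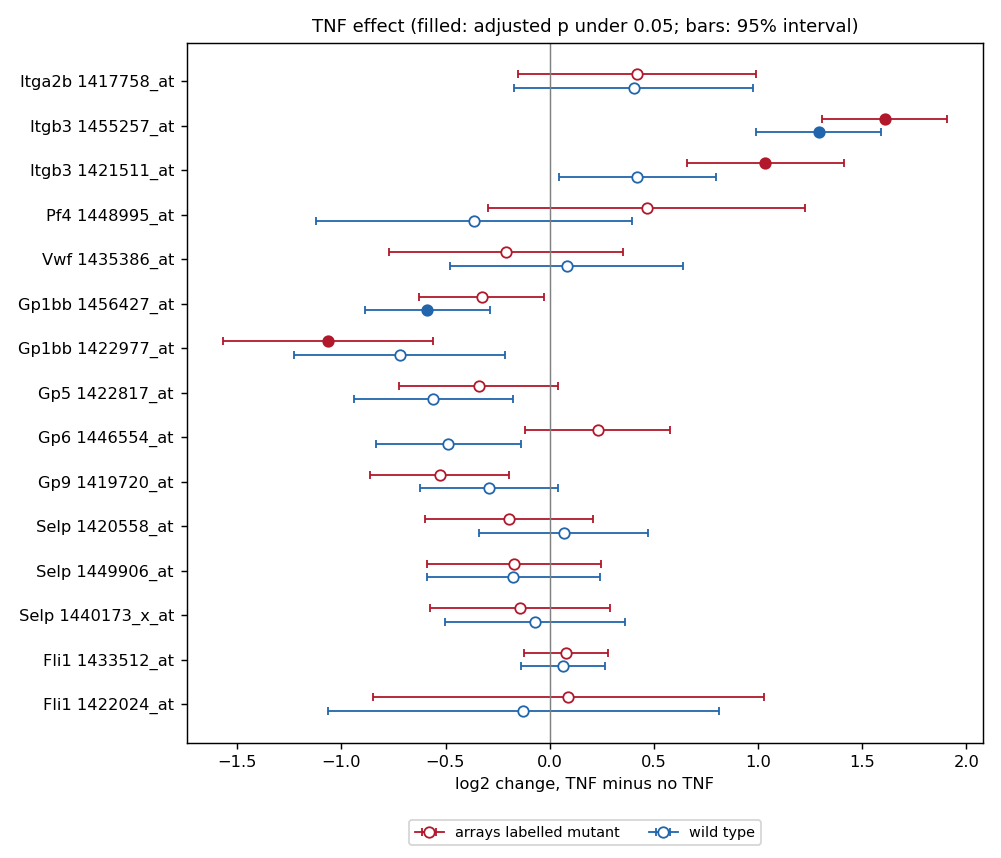
TNF effect on the 15 probe sets, as the log2 change of treated minus untreated arrays, with red for arrays labelled mutant and blue for wild type; bars are 95% intervals and filled points passed at an adjusted p under 0.05. Itgb3 lies to the right of 0, the intervals of Gp1bb lie to its left, and those of Pf4, Vwf, Selp and Fli1 cross 0.

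The granule genes did not pass with TNF. Pf4, the platelet chemokine, read 8.70, 8.96 and 9.53 on treated and 8.59, 8.25 and 8.96 on untreated arrays labelled mutant. Wild-type arrays gave 9.52, 9.30 and 9.09 with TNF and 10.22, 9.97 and 8.81 without it. Its changes of 0.46 and -0.36 (SE 0.34 each) had opposite signs, and the untreated wild-type arrays alone spanned a range of values wider than either change. The 95% intervals ran from -0.29 to 1.22 on arrays labelled mutant and from -1.12 to 0.40 in wild type.

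Vwf, the adhesive ligand of the GPIb-IX-V complex, read 5.95, 5.96 and 6.24 on treated and 6.47, 6.35 and 5.95 on untreated arrays labelled mutant. It read 6.31, 6.61 and 6.94 on treated and 7.11, 6.06 and 6.44 on untreated wild-type arrays. The groups overlapped in both genotypes, and the changes were -0.21 and 0.08 (SE 0.25 each, limma adjusted p = 0.806 and 0.926). The 3 Selp probe sets changed with TNF by -0.20, -0.17 and -0.14 on arrays labelled mutant and by 0.07, -0.18 and -0.07 in wild type, with SE from 0.18 to 0.20 and none passing.

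Fli1 hardly differed between groups. Its brighter probe set (1433512_at) read 11.44, 11.43 and 11.52 on treated and 11.50, 11.43 and 11.23 on untreated arrays labelled mutant, and 11.48, 11.38 and 11.46 on treated and 11.42, 11.45 and 11.26 on untreated wild-type arrays. The TNF changes were 0.08 and 0.06 (SE 0.09 each), and the 95% intervals, from -0.12 to 0.28 and from -0.14 to 0.27, leave room for only small changes. The dimmer Fli1 probe set (1422024_at) spread from 6.36 to 8.20 and gave 0.09 and -0.13 (SE 0.43 each).

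Over the 15 probe sets, 3 of 2 genes passed with TNF on the arrays labelled mutant, where 2.09% of all probe sets passed. Of these, 2 rose, both of Itgb3, where 1.25% of all did, and 1 fell, where 0.846% did. In wild type 2 passed, where 2.58% of all did: 1 rose, where 1.5% did, and 1 fell, where 1.07% did. Averaged over genotype 5 probe sets of 3 genes passed, where 7.41% of all did: 2 rose, where 3.8% did, and 3 fell, where 3.61% did. The median change of the members was -0.14, -0.13 and -0.06 in these comparisons, and that of all probe sets was -0.03, -0.02 and -0.03. On the arrays labelled mutant 6 probe sets of 4 genes did not overlap between treatments, where 21.5% of all probe sets did not. Of these, 3 lay higher with TNF, where 8.55% of all did, and 3 lower, where 13% did. In wild type 4 probe sets of 3 genes did not overlap, where 18.4% of all did not. Of these, 1 lay higher, where 8.31% of all did, and 3 lower, where 10.1% did. Probe sets of a shared gene are not separate evidence, and the shares count each probe set. In bulk samples such as these, fewer cells of a type and less RNA per cell cannot be told apart. For the difference between the TNF effects 0 of 15 passed in limma, where 0% of all probe sets passed, and 2 had an unadjusted p under 0.05, where 2.86% of all did.

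The second question was how the genotypes differed. P-selectin, an adhesion receptor of platelets and endothelium, read lower on the arrays labelled mutant on all 3 Selp probe sets. The probe set 1449906_at read 8.46, 8.39 and 8.25 on treated arrays labelled mutant and 9.22, 8.67 and 8.78 on treated wild-type arrays. Without TNF it read 8.31, 8.61 and 8.68 on arrays labelled mutant and 8.85, 8.88 and 9.47 on wild-type arrays. The genotypes did not overlap under either treatment.

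The same held for 1440173_x_at, with 7.43, 6.96 and 7.08 on treated arrays labelled mutant and 8.16, 7.54 and 7.63 on treated wild-type arrays, and 7.15, 7.49 and 7.25 against 7.84, 7.58 and 8.12 without TNF. The brightest, 1420558_at, read 10.33, 10.04 and 10.28 against 10.87, 10.42 and 10.98 with TNF, without overlap. It read 10.26, 10.78 and 10.20 against 10.85, 10.55 and 10.67 without TNF, with overlap. Averaged over treatment the differences were -0.41 (SE 0.13), -0.53 (SE 0.13) and -0.59 (SE 0.14) from the brightest to the dimmest. None passed over all probe sets (limma adjusted p = 0.714, 0.595 and 0.549). The 3 probe sets share a gene and are not separate evidence.

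Itgb3 without TNF was lower on the arrays labelled mutant by -0.51 on both probe sets (SE 0.14 and 0.17), without overlap, and did not pass (limma adjusted p = 1 for both). With TNF the differences were -0.20 (SE 0.14) and 0.10 (SE 0.17), with overlap. Pf4 had the widest difference without TNF, -1.07 (SE 0.34), but its groups overlapped, since 1 untreated wild-type array read 8.81 (limma adjusted p = 1). Vwf read at most 6.24 on treated arrays labelled mutant and at least 6.31 on treated wild-type arrays, a difference of -0.57 (SE 0.25, limma adjusted p = 0.999). The differences of Gp1bb, Gp9 and Fli1 ranged from -0.43 to 0.45 over both treatments, with overlap in each.

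In limma 0 of 15 probe sets passed for genotype without TNF, where 0.00666% of all probe sets passed, and 0 of 15 with TNF, where again 0.00666% passed. An unadjusted p under 0.05 was found without TNF for 6 probe sets of 4 genes, where 3.88% of all probe sets had one. With TNF it was found for 4 of 2 genes, where 4.96% had one. All of these were lower on the arrays labelled mutant. Without TNF, 7 probe sets of 5 genes (Itga2b, Itgb3, Gp5, Gp6 and Selp) did not overlap, where 8.06% of all probe sets did not: all 7 lay lower, where 3.86% of all did, and 0 higher, where 4.21% did. With TNF, 4 probe sets (Vwf and the 3 of Selp) did not overlap, where 10.2% of all did not: all 4 lay lower, where 5.65% of all did, and 0 higher, where 4.57% did. These counts were the same with arrays centred on their median and with cyclic loess. The median difference of the members was -0.34 without and -0.20 with TNF, and that of all probe sets was near 0. Averaged over treatment 0 of 15 passed in limma, where 0.0266% of all probe sets passed. There 7 probe sets of 5 genes had an unadjusted p under 0.05, where 6.3% of all did.

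**Figure D4:**
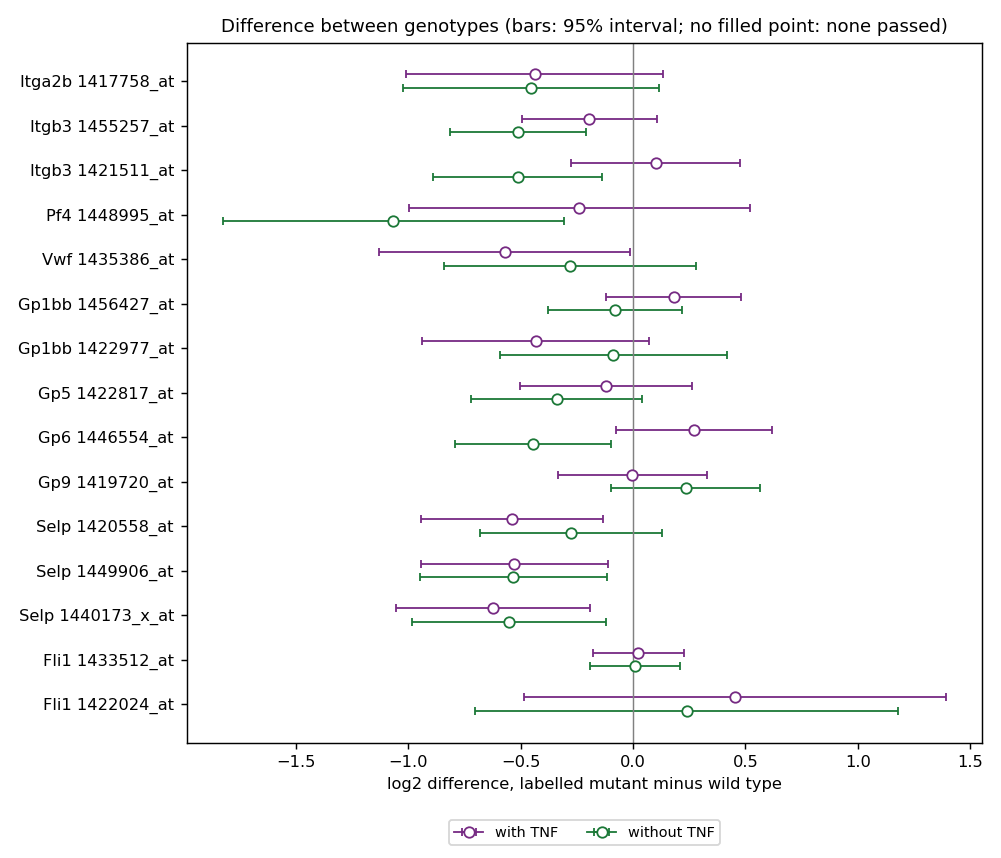
Difference between genotypes on the 15 probe sets, as log2 of arrays labelled mutant minus wild type, with purple for TNF-treated and green for untreated arrays; bars are 95% intervals, and no probe set passed. The 3 Selp probe sets lie to the left of 0 under both treatments.

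Since Vwf and Selp are also endothelial, 10 endothelial markers were set beside them. Each stood as its brightest probe set, while the shares cover all probe sets, dim ones included. With TNF, 4 of the 10 lay lower without overlap on the arrays labelled mutant (Tek, Emcn, Eng and Robo4), where 5.65% of all probe sets did. Without TNF 1 of the 10 did (Eng), where 3.86% of all did. Under either treatment 0 lay higher, and none passed. Their summed signal ran from 1086 to 1246 on treated arrays labelled mutant and from 1462 to 1592 on treated wild-type arrays, and from 1554 to 1680 and from 1733 to 2138 without TNF. Levels within the list were mixed. Cdh5 read at most 4.64 on any array and Kdr at most 5.25, both below the median of all values (6.02). The group means of Plvap and Cldn5 were also below it. Those of Pecam1, Eng, Tek, Tie1 and Emcn were above it in every group, and those of Robo4 lay on both sides. Bulk samples do not tell whether the transcripts of this list came from endothelial cells or from the sorted progenitors. The part of either in the differences of Vwf and Selp was not tested.

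Further genes of megakaryocyte and platelet biology were taken as 5 lists of 84 genes, of which 76 were measured. Each gene stood as its brightest probe set. The shares beside the counts cover all probe sets, dim ones included, so they are not like for like. With TNF averaged over genotype 10 of the 76 rose, where 3.8% of all probe sets did, and 7 fell, where 3.61% did. For genotype 0 passed in limma under either treatment. An unadjusted p under 0.05 was found for 7 of the 76 without TNF, where 3.88% of all probe sets had one, and for 10 with TNF, where 4.96% had one. The median TNF change was -0.04, against -0.03 for all probe sets. Without TNF, 13 of the 76 lay lower without overlap on the arrays labelled mutant, where 3.86% of all probe sets did, and 1 higher, where 4.21% did. With TNF, 7 lay lower, where 5.65% of all did, and 3 higher, where 4.57% did.

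Of 19 receptors and adhesion molecules 2 rose and 3 fell. Ptgir, the prostacyclin receptor that restrains platelets, rose by 1.08 (SE 0.10) and the junction protein F11r by 0.99 (SE 0.13). P2ry1, an ADP receptor, fell by 0.62 (SE 0.16) and Treml1, a receptor of platelet α granules, by 0.59 (SE 0.14). The P2ry1 and Treml1 calls were lost in 11 of 21 and 8 of 20 alternative analyses.

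Of 16 granule and secretion genes 2 rose and 2 fell. F13a1, the A subunit of factor XIII, which monocytes also make, fell by 4.46 (SE 0.34). The adhesive protein gene Thbs1 fell by 1.28 (SE 0.27). The growth factor gene Pdgfa rose by 0.93 (SE 0.13) and Vamp8, which acts in granule release, by 0.21 (SE 0.05), a call lost in 9 of 21 alternative analyses. Of 17 transcription factors only Mef2c passed, rising by 0.26 (SE 0.07, limma adjusted p = 0.0495), and this call was lost in 12 of 21 alternative analyses. Gata1, a master regulator of the lineage, ranged from 4.96 to 7.13 and did not pass.

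Of 15 platelet signalling genes 3 rose and 1 fell. The adaptors Fyb and Lcp2, active in many leukocytes, rose by 1.14 (SE 0.09) and 1.02 (SE 0.08), and Plek by 0.48 (SE 0.08). Rasgrp2, the exchange factor that activates Rap1 upstream of αIIbβ3, fell by 0.85 (SE 0.12). Of 9 cytoskeletal genes 2 rose and 1 fell. Tubb1, the β-tubulin of platelets, rose by 1.77 (SE 0.31), from a dim probe set that read 3.40 to 6.88 over all arrays. Mylk rose by 1.10 (SE 0.13) and Zyx fell by 0.40 (SE 0.08). Itgb3 and Tubb1 thus rose where Gp1bb, Gp9 and Treml1 fell.

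**Figure D5:**
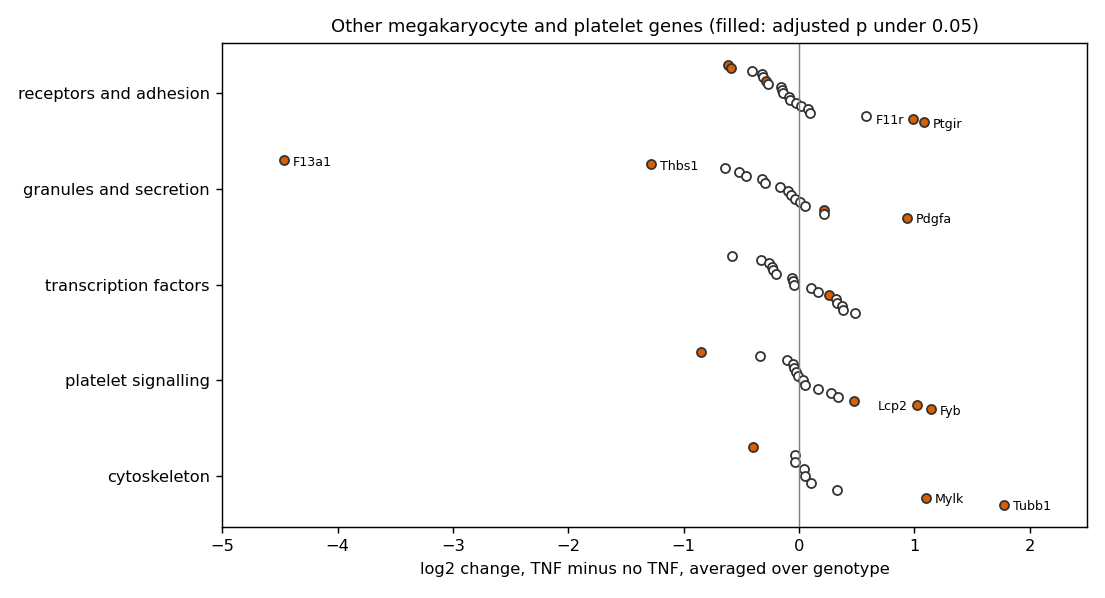
TNF effect averaged over genotype for the 76 other megakaryocyte and platelet genes in 5 lists, as log2 change; each point is a gene, filled where it passed at an adjusted p under 0.05. Calls lie on both sides of 0, with F13a1 at -4.46 and Tubb1 at 1.77 at the ends.

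Markers of other lineages moved with TNF. Of 13 granulocyte markers 11 fell and 0 rose averaged over genotype, among them Mmp8 (-4.92, SE 0.33), Elane (-3.54, SE 0.55), Ngp (-2.57, SE 0.42) and Cxcr2 (-2.53, SE 0.14). Their summed signal was 16666 to 38947 on treated and 63393 to 75426 on untreated arrays labelled mutant, and 18425 to 28729 on treated and 52554 to 65748 on untreated wild-type arrays. Of 10 erythroid markers 1 rose (Car2, 0.96, SE 0.06) and 2 fell (Klf1, -0.65, SE 0.11, and Tfrc, -0.23, SE 0.06). Their levels differed widely: the probe set of the globin gene Hba-a1 read at most 3.45, Tfrc at least 12.98 and Car2 at least 12.07. Of 7 mast cell and basophil markers 2 fell, Mcpt8 (-1.82, SE 0.31) and Hdc (-1.78, SE 0.31). The Tfrc call was lost in 11 of 21 alternative analyses, and those of Klf1, Mcpt8 and, above, Zyx in 1 each. Pecam1 fell by 1.18 (SE 0.13), the only call among the endothelial markers, and Procr rose by 1.48 (SE 0.28), the only one among 7 stem and progenitor surface markers. The part of these lineages in the changes of Itgb3, Gp1bb and Gp9 was not tested.

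The genes most alike in pattern over the 12 arrays, which share their treatment groups, were Ikbkb, Atxn2 and Slc30a9 for Itga2b (Pearson's r from 0.933 to 0.945), Gm36243, Glod5 and Gab1 for Pf4 (r from 0.864 to 0.884) and Mttp, 2700046G09Rik and Mettl3 for Vwf (r from 0.888 to 0.910). None of them is in the lists above. They were picked as the highest r among all genes outside the members, over only 12 arrays. High r can arise there between unrelated genes, and none was tested. Among the members, deviations from the group means correlated most for the Selp probe sets 1449906_at and 1440173_x_at (r = 0.799, 12 arrays), which measure the same gene. Other probe sets of a shared gene varied. The remaining Selp pairs gave r = 0.201 and 0.560 and the Gp1bb pair 0.511. The Itgb3 pair gave -0.458 and the Fli1 pair -0.502.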

How the data were processed

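RNA of KSL cells was amplified from 5 to 15 ng and hybridised to 1-colour Affymetrix mouse arrays, 1 per sample, per the labels' protocols. The authors deposited log2 values, 1 per probe set and array, made with RMA per the submitters' processing notes. No version of RMA is stated, and the log base was read off the values. RMA corrects background and equalises arrays, so overall shifts cannot be seen and dim probe sets are compressed.

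Of 45101 probe sets, 64 controls were left out. The rest were fitted with limma 3.58.1 (R 4.3.3), 1 mean per group over 12 arrays, with empirical Bayes moderation, 2-sided tests and Benjamini-Hochberg adjustment over all 45037 (threshold 0.05). Members were named with every probe set; genes outside the members were represented by their brightest probe set. Named from each list were its calls for the averaged TNF effect, at most 4 by size. Itgav and the probe set of Septin5 and Gp1bb were added after their values were seen. So were the list members named for genotype or level: Kit, Cd34, Cd48, Flt3, Hlf, Slamf1, Gata1 and Hba-a1. The same holds for the endothelial markers Cdh5, Kdr, Plvap, Cldn5, Tek, Tie1, Emcn, Eng and Robo4. Members and lists were chosen with earlier results of these data known. For Itga2b, Pf4 and Vwf the 3 genes of highest Pearson correlation were also named. Summed signals add unlogged values. The scripts were tested on simulated data. Alternatives were a replicate block, a filter on dim probe sets, gene-level tests, other scalings and moderation, array weights (statmod 1.5.0), smaller fits, sex-linked covariates and leaving out each array.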

Additional observations from a re-analysis of the deposited data

How the results depend on the processing

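No member changed direction in a comparison it had passed, under any alternative. Both Itgb3 calls on arrays labelled mutant, the wild-type call and both averages were kept in every alternative run (highest adjusted p = 0.0465). The wild-type count of 2 fell to 1, Itgb3, under the replicate block, with arrays centred on their median, with cyclic loess, with trend and robust moderation, with array weights, with only the groups compared and with the Xist and Eif2s3y covariates, and was 1 to 2 when single arrays were left out. Of the 12 analyses without 1 array, the Gp1bb call was kept only without treated replicate 2 of the arrays labelled mutant and without untreated wild-type replicate 3 (adjusted p up to 0.282 over all alternatives). The count of 3 on arrays labelled mutant was 1 at gene level with the brightest probe set, which tests 1 probe set per gene, and 2 to 3 without single arrays; Gp1bb was lost there without treated replicate 1 or 2 or any untreated array of either genotype (up to 0.154). The averaged count of 5 was 2 with the covariates and 4 to 6 without single arrays; Gp9 was lost without treated replicate 1 or 3 of either genotype, any untreated array labelled mutant, or untreated wild-type replicate 2 or 3 (up to 0.123). For genotype and the interaction 0 members passed in each alternative (lowest adjusted p = 0.272). Whether the replicate numbers pair the arrays was not settled. Of 18 correlations of deviations between arrays sharing a number, 7 were over 0.1 (range -0.133 to 0.316). Of 12 arrays, 6 were closest to their own number. Under the block the Gp1bb calls within each genotype were lost (adjusted p = 0.0729 and 0.0778) and Gp5 passed in the average (0.0297). The dim-probe filter removed Gp5 and Gp6. Centring moved the averaged split of all calls to 1527 higher and 1872 lower, from 1710 and 1627, and cyclic loess to 1863 and 1444. Dim members, Gp6 above all, limit what can be seen.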
